A study of Onthophagus taurus with 96 samples.

Results

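Female genital tissue was compared with male genital tissue of control pupae of the dung beetle *Onthophagus taurus*, over 6 female and 6 male RNA-seq libraries out of 96 in the series. The libraries were chosen by their labels alone (tissue, sex and treatment). All 12 libraries came from pupae without dsx knockdown that were not untouched: as final-instar larvae, within their first 5 days, they had been injected with 1 μg of a control double-stranded RNA, made from a cloning vector, in 3 μl. The 12 dsxRNAi genitalia libraries used for comparison came from larvae that had received 0.5 μg of double-stranded RNA matching the stretch of dsx that its isoforms have in common, and 36 control libraries of brain, head horns and thoracic horns were used for the comparison with other tissues. Parents were field-collected beetles bred in containers of 5 females and 3 males, and pupae were taken no more than 1 day after pupation.

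The genital tissue was the epidermis of the hindmost abdominal segments, with the external copulatory organ of the male included, so the dissected female and male pieces differ in the structures they hold. In insects these segments form the genitalia under the Hox gene Abd-B and the sex-specific products of dsx, while signalling proteins such as Wingless and Hedgehog and transcription factors such as Engrailed and Distal-less pattern the outgrowing parts. A pupa of this age is laying down new cuticle, which needs chitin, cuticle proteins and tanning enzymes, while larval muscles and nerves of the abdomen are being remodelled. The tissue matched its label: Abd-B (OTAU010250, scaffold 49, 168959 to 176176), the Hox gene of the hindmost segments, had 200.1, 286 and 299.6 CPM (reads scaled to a common library size) in female genitalia and 201, 253 and 265 CPM in male genitalia, where 3 values in a row are the lowest, the median and the highest library of a group. In the libraries of brain, head horns and thoracic horns no more than 3 reads fell on it. The epidermal transcription factor grh had 108, 149 and 209 CPM in females and 145, 166 and 212 CPM in males.

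Between 5818852 and 12481940 reads fell on genes in the female libraries, and between 6490565 and 13597870 in the male libraries. CPM were normalised with TMM factors, which set the bulk of genes equal between the libraries of a comparison, and each difference is a log2 fold change of females over males, tested in edgeR by its quasi-likelihood method, with a call where the adjusted p (Benjamini-Hochberg) was under 0.05. The labels number each library separately and do not say which animal it came from, so p-values measure the spread between these libraries.

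Library S89, labelled as a female, stood apart from the other 5 females. Over 8689 genes, its Pearson correlation of log2(CPM + 1) was 0.695 to 0.883 with the other females and 0.907 to 0.943 with the 6 males, while the other females correlated with each other at 0.864 to 0.972 and the males with each other at 0.949 to 0.972. On the first principal component, with 60.3% of the variance, S89 lay at -51.3, the other females between 7.03 and 82.3, and the males between -43.1 and -13.8. The label was followed by the genes most strongly male-biased but not by those most strongly female-biased: among 21 genes that were male-biased by 3 log2 units or more in a fit without S89, the library lay nearer the male mean for 3 (14.3%), against 1684 of 1794 (93.9%) of the male-biased genes under 1 log2 unit. Among female-biased genes it lay nearer the male mean at every size, for 120 of 124 genes at 3 log2 units or more (96.8%) and for 1058 of 1160 under 1 log2 unit (91.2%). The numbers of calls in the control comparison, most of its lists and most of its named genes are therefore given with S89, as labelled, and also without it. The remaining females were spread widely as well, with S90 nearer the male mean for 35.0% of the 4568 genes called without S89 and S87 for 4.71%.

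**Figure D1:**
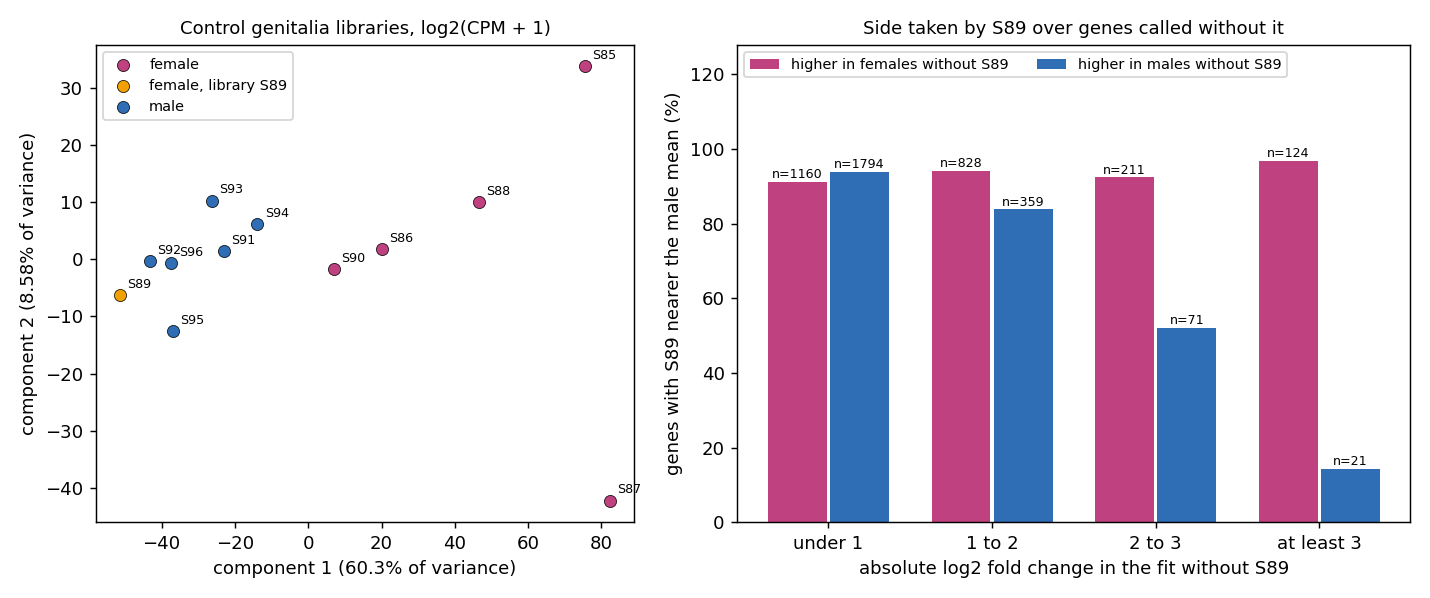
Left, the 12 control genitalia libraries on the first and second principal components of log2(CPM + 1), in arbitrary component units: S89, in orange, lies at -51.3 on component 1, beyond the males, which lie between -43.1 and -13.8. Right, the percentage of genes for which S89 was nearer the male than the female mean, for genes called without S89, by their absolute log2 fold change (n, number of genes): it is 14.3% for the 21 male-biased genes of at least 3 log2 units.

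Of 10014 genes tested over the 12 libraries, 654 were female-biased (6.53%) and 374 male-biased (3.73%), 10.3% in all, and 3706 genes had an unadjusted p under 0.05. Without S89, 2323 of 10113 genes were female-biased (23%) and 2245 male-biased (22.2%), 45.2% in all, and every one of the 654 and of the 374 calls was among them in the same direction. The median absolute log2 fold change was 1.12 for female-biased and 0.79 for male-biased calls, and 116 female-biased and 54 male-biased genes differed by 2 log2 units or more. With S89 kept, the libraries separated better on the male side: for 93 of the 654 female-biased calls all 6 females lay above all 6 males, and for 175 of the 374 male-biased calls all 6 females lay below all 6 males, against 101 (1.01%) and 210 (2.1%) of all genes tested. These sizes and separations are given with S89 only, and how far they rest on it was not tested. Leaving out any library other than S89 brought the count down to between 121 and 342 genes, the lowest without male library S92 and the highest without male library S94. The calls that held with each of the 12 libraries left out in turn numbered 32 female-biased and 79 male-biased genes, and these are called stable below. Among stable calls the median log2 fold change was 1.72 for the 31 female-biased and -1.95 for the 70 male-biased ones that were also tested in dsxRNAi genitalia. As these are bulk samples, more cells of a type and more RNA per cell cannot be told apart for any gene described here. With library totals alone in place of TMM factors, the median log2 fold change of all genes was -0.32 against 0.02 with TMM factors, and 120 genes were female-biased and 637 male-biased, so the balance between the directions rests on the scaling and changes are described relative to the bulk of genes.

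**Figure D2:**
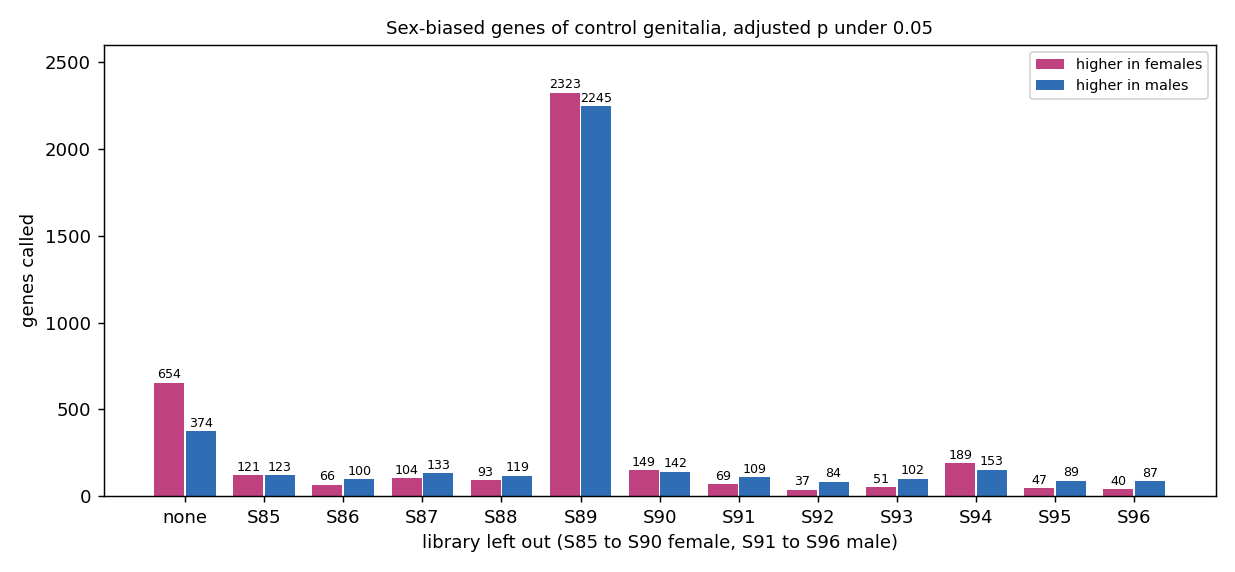
Number of genes called at an adjusted p under 0.05 over all 12 control genitalia libraries (none) and with each library left out, female-biased in red and male-biased in blue. Without S89 the counts are 2323 and 2245, and without any other library they lie between 37 and 189 female-biased and between 84 and 153 male-biased genes.

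Of the sex determination pathway, fru and fem1b were female-biased and dsx was not called by edgeR. For dsx (OTAU004153, scaffold 241, 699490 to 703641), the transcription factor whose male and female splice forms direct sexual differentiation in insects, libraries of female genitalia had 10.1, 52.5 and 156 CPM and those of male genitalia 24.4, 30.8 and 44.2 CPM. The female values spanned the male ones, and the highest female was S89 (log2 fold change 0.92, SE 0.496, adjusted p = 0.189 with S89, and 0.38, adjusted p = 0.466 without it). Limma-voom with library weights called dsx female-biased over the 12 libraries (adjusted p = 0.0447), but not without S89. Reads were counted per gene, so the isoforms of dsx were not separated. Among the 9 genes of the list 6 were tested and 2 were female-biased, beside 6.53% of all genes tested. Fruitless (fru), which in the fly shapes the sexes' nervous system, had 15.5, 21.2 and 22.9 CPM in females and 13.1, 13.7 and 16.8 CPM in males (log2 fold change 0.49, SE 0.122, adjusted p = 0.0369, 0.56 without S89). Fem1b (OTAU005638, scaffold 62, 550036 to 560703), named after its human relative and, through it, related to the worm's sex-determining fem-1, had 55.1, 365 and 488 CPM in females and 95.6, 127 and 147 CPM in males (log2 fold change 1.45, SE 0.374, adjusted p = 0.04, 1.67 without S89). Its lowest female was S89, below every male, and the other 5 females lay above every male. Both calls were lost when any single library other than S89 was left out, with adjusted p of up to 0.0929, and with library totals alone. The splicing regulators sxl, with 0.446, 2.42 and 3.61 CPM in females and 1.503, 2.35 and 4.39 CPM in males, and fl(2)d, with 97.3, 105 and 114 CPM in females and 109.6, 120.4 and 137 CPM in males, did not pass, nor did da, with 109.7, 143 and 164 CPM in females and 122, 133 and 149 CPM in males. The remaining members, dmrt93b, dmrt99b and dsf, stayed under 0.5 CPM in every library of both sexes.

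Among Hox and posterior identity genes, 7 of 8 were tested and 1 was called, beside 10.3% of all genes, and without S89 2 were called, beside 45.2%. Antp, which in insects marks thoracic segments, was low in both sexes with 4.68, 5.05 and 9.43 CPM in females and 2.23, 3.04 and 3.84 CPM in males, and all 6 females lay above all 6 males (log2 fold change 1.02, SE 0.264, adjusted p = 0.0402, 0.86 without S89). That call was lost without any single library other than S89 (adjusted p of up to 0.0915) and with library totals alone. The abdominal Hox gene abd-a had 0.326, 3.72 and 12.5 CPM in females, with the highest in S89, and 0.373, 1.35 and 2.02 CPM in males, and ubx had 5.40, 6.25 and 7.91 CPM in females and 3.23, 4.94 and 5.97 CPM in males, neither past the threshold. The Hox cofactors hth, with 9.63, 26.5 and 48.5 CPM in females and 10.9, 19.95 and 27.2 CPM in males, and exd, with 279, 329 and 372 CPM in females and 296, 329 and 372 CPM in males, were not called either. Byn, a T-box factor of the hindgut in the fly, had 5.17, 32.4 and 40.1 CPM in females and 15.6, 18.5 and 25.3 CPM in males and was called without S89 alone (log2 fold change 0.81, adjusted p = 0.00156), S89 being its lowest female, while eve was at 0 in every library.

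Among genes whose sexes did not overlap and whose mean was at least 5 CPM in the higher sex, the strongest female bias was that of dpr13 (OTAU009587, scaffold 690, 37547 to 72766, + strand), a cell-surface immunoglobulin protein whose fly family guides the matching of nerve cells to their partners. Female libraries had 25.9, 27.2 and 111 CPM, with S89 the highest, and male libraries 0.307, 0.980 and 2.24 CPM (log2 fold change 5.32, SE 0.554, adjusted p = 0.000479, 4.76 without S89). All 6 females lay above all 6 males by a wide gap. Per length, its median level was 16.4 FPKM in females and 0.668 FPKM in males.

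A pattern of this kind at smaller differences was found for the 4 genes that follow, whose calls were stable. Hig (OTAU003428, scaffold 527, 744853 to 747736), a secreted protein of the fly's synaptic cleft, had 2.94, 7.85 and 20.8 CPM in females and 1.03, 1.31 and 1.77 CPM in males (log2 fold change 2.81, SE 0.423, adjusted p = 0.00444, 2.41 without S89). OtauTmpM003092 (OTAU003092, scaffold 155, 568072 to 588289), which has no name from another animal, had 6.69, 26.7 and 86.5 CPM in females and 0.999, 2.34 and 4.98 CPM in males (log2 fold change 3.63, SE 0.585, adjusted p = 0.00707, 3.09 without S89). In both, as in dpr13, S89 was the highest library, so it did not sit with the males there. The serotonin receptor gene 5-ht2 (OTAU000243, scaffold 5, 3635193 to 3653879) had 14.4, 45.5 and 141 CPM in females, S89 being the lowest, and 8.11, 9.53 and 14.2 CPM in males (log2 fold change 2.57, SE 0.453, adjusted p = 0.0112, 2.77 without S89). OtauTmpM009827, also without a name, had 1.44, 3.76 and 15.998 CPM in females and 0.384, 0.619 and 0.934 CPM in males (log2 fold change 3.05, SE 0.575, adjusted p = 0.0165, 3.09 without S89, 2.35 without S87). Females and males did not overlap in any of these genes.

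Less secure were ine, a transporter of the neurotransmitter family, with 13.6, 21.5 and 51.97 CPM in females and 3.83, 6.24 and 10.2 CPM in males (log2 fold change 1.91, SE 0.374, adjusted p = 0.0199, 1.95 without S89, lost without S95 or S96, adjusted p of up to 0.0533), and OtauTmpM009002, with 14.5, 28.2 and 133 CPM in females and 2.84, 4.93 and 14.3 CPM in males (log2 fold change 2.78, SE 0.603, adjusted p = 0.0275, 2.92 without S89, lost without S91, S92, S95 or S96, up to 0.0715, and 2.01 without S85). Spz3, of the Spätzle family of Toll ligands, had 5.63, 6.81 and 24.98 CPM in females and 2.84, 3.75 and 5.47 CPM in males (log2 fold change 1.56, SE 0.415, adjusted p = 0.0425, 1.69 without S89). In these genes too the sexes did not overlap, but the call of spz3 was lost without any library other than S89 (up to 0.094).

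At higher levels, the stable female-biased genes without overlap between the sexes included a transcription factor and a muscle protein. Atf3 (OTAU007804, scaffold 295, 130923 to 153321), a stress-responsive leucine zipper factor, had 66.01, 101 and 127 CPM in females and 32.1, 41.2 and 53.5 CPM in males (log2 fold change 1.28, SE 0.181, adjusted p = 0.00305, 1.38 without S89). Tm2 (OTAU004927, scaffold 43, 171903 to 173325), a tropomyosin, had 378, 619.8 and 944 CPM in females and 208, 240.3 and 361 CPM in males (log2 fold change 1.34, SE 0.221, adjusted p = 0.00827, 1.45 without S89). In both genes S89 was the lowest female and still above every male.

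Among the most abundant genes called, those higher in females were a cuticle protein gene and 2 genes without a name. OtauTmpM002675, without a name, had 4424, 18554 and 25250.1 CPM in females and 2405, 5116 and 8086 CPM in males (log2 fold change 1.66, SE 0.432, adjusted p = 0.0407, 1.85 without S89). Cpr72eb, a cuticle protein with a chitin-binding domain, had 1935, 9884 and 23584 CPM in females and 623, 1392 and 4722 CPM in males (log2 fold change 2.45, SE 0.696, adjusted p = 0.0467, 2.68 without S89). OtauTmpA005719 had 3599, 7734 and 29486 CPM in females and 1380.0, 2184 and 4297 CPM in males (log2 fold change 2.04, SE 0.509, adjusted p = 0.0373, 2.22 without S89). Without S85 the log2 fold change of OtauTmpA005719 was 1.44. The sexes overlapped in these genes through S89, the lowest female in each, and each call was lost without any single library other than S89 (adjusted p of up to 0.101).

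**Figure D3:**
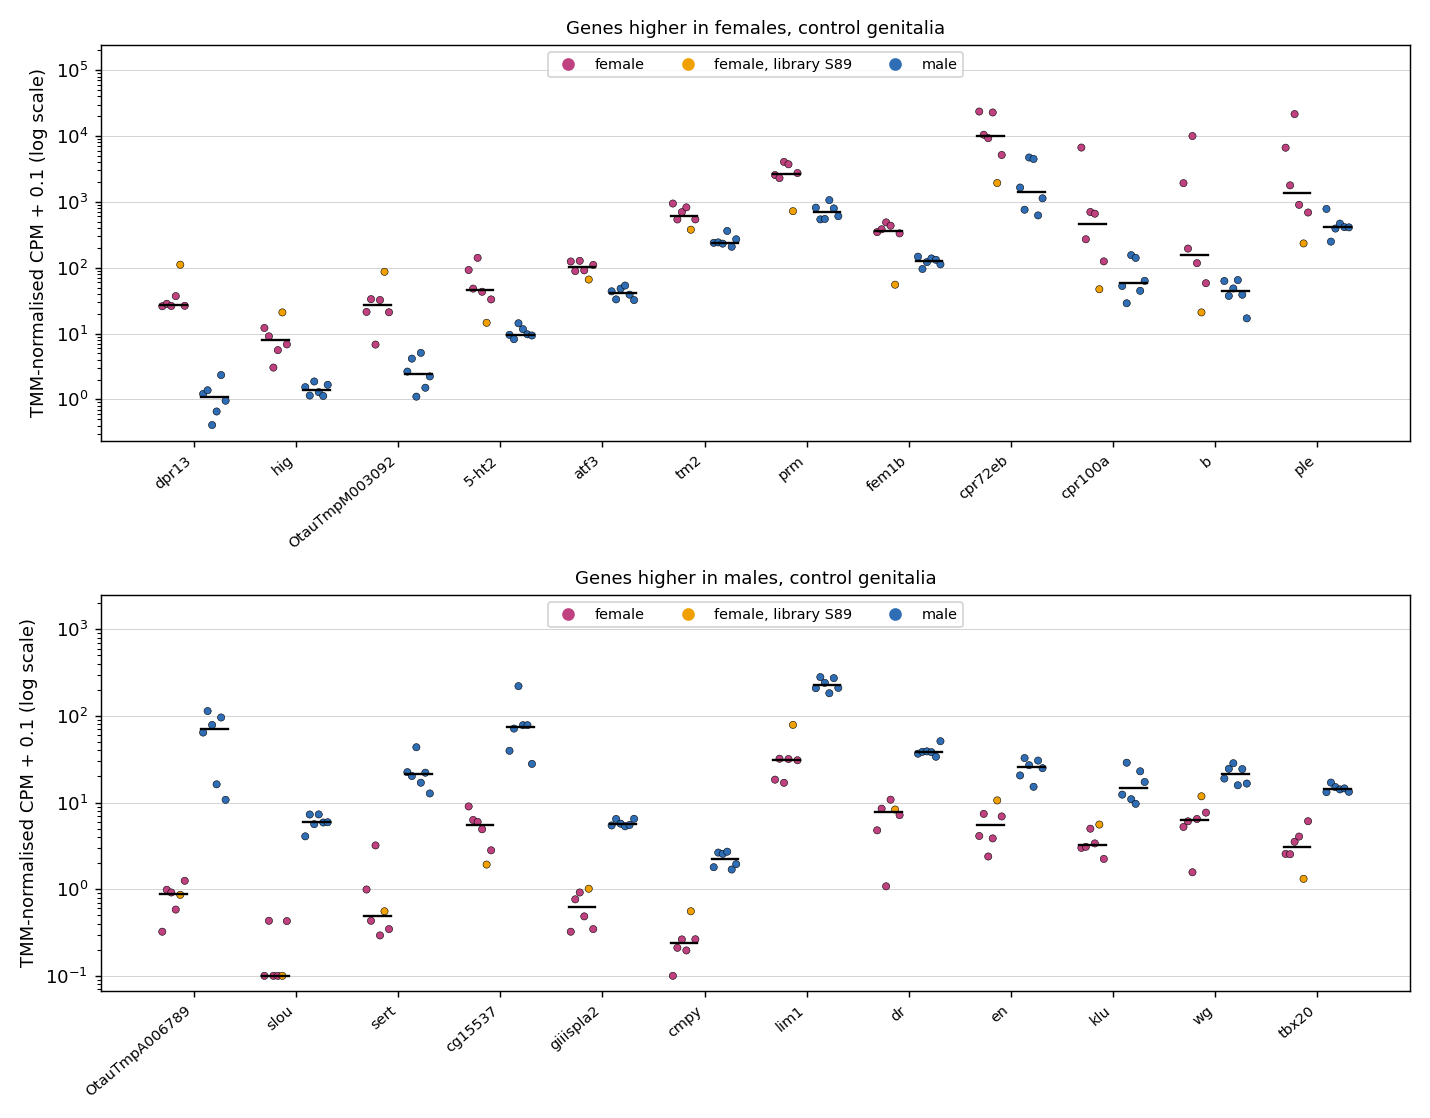
TMM-normalised CPM plus 0.1 on a log axis for 12 female-biased genes (top) and 12 male-biased genes (bottom) in the 6 female and 6 male control genitalia libraries, one point per library with S89 in orange and bars at group medians. Dpr13 has 25.9 CPM or more in every female and 2.24 CPM or less in every male, and slou has 0.332 CPM or less in every female and 3.98 CPM or more in every male.

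Among male-biased genes a pair of neighbours on scaffold 44 was nearly limited to males. The first has the strongest male bias among genes whose sexes did not overlap and whose mean was at least 5 CPM in the higher sex. OtauTmpA006789 (OTAU006789, scaffold 44, 438584 to 458856, + strand), which has no name from another animal, had 0.223, 0.788 and 1.15 CPM in females and 10.7, 71.4 and 114 CPM in males (log2 fold change -6.36, SE 0.669, adjusted p = 0.000485, -6.35 without S89). Its neighbour OtauTmpM006788 (OTAU006788, scaffold 44, 373222 to 385314, + strand) had 0, 0.411 and 0.913 CPM in females and 2.70, 15.5 and 32.3 CPM in males (log2 fold change -5.13, SE 0.726, adjusted p = 0.00314, -5.43 without S89). No female, S89 included, passed 1.15 CPM for either gene, and males varied over a wide range. OtauTmpM007150, a short gene on scaffold 20 (173958 to 174634), had 2.55, 3.92 and 14.1 CPM in females, with S89 the highest, and 48.1, 178 and 212 CPM in males (log2 fold change -4.80, SE 0.493, adjusted p = 0.000458, -5.32 without S89).

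The other strongly male-biased genes included a transporter, an adhesion protein and a secreted enzyme. Sert (OTAU003127, scaffold 155, 879052 to 887520), the transporter that takes serotonin back into cells, had 0.193, 0.394 and 3.10 CPM in females and 12.6, 21.1 and 43.4 CPM in males (log2 fold change -4.85, SE 0.621, adjusted p = 0.0017, -4.77 without S89, -5.91 without S87). The serotonin receptor gene described above and the transporter gene thus differed between the sexes in opposite directions. Cg15537, known by its fly gene number, had 1.83, 5.35 and 8.92 CPM in females and 27.8, 74.7 and 221 CPM in males (log2 fold change -4.11, SE 0.545, adjusted p = 0.00209, -3.96 without S89). Giiispla2, a secreted phospholipase, had 0.223, 0.525 and 0.913 CPM in females and 5.22, 5.51 and 6.39 CPM in males (log2 fold change -3.39, SE 0.322, adjusted p = 0.000321, -3.60 without S89), and the males lay close together. The adhesion gene dscam4 had 0.669, 4.34 and 8.21 CPM in females and 14.6, 25.4 and 53.2 CPM in males (log2 fold change -2.86, SE 0.496, adjusted p = 0.0107, -2.83 without S89). Cg30158 had 0.332, 0.696 and 1.98 CPM in females and 4.17, 6.49 and 11.6 CPM in males (log2 fold change -3.002, SE 0.412, adjusted p = 0.00264, -3.42 without S89), and cg30263 1.33, 2.19 and 2.89 CPM in females and 5.86, 13.6 and 24.7 CPM in males (log2 fold change -2.70, SE 0.356, adjusted p = 0.00204, -2.81 without S89). Females and males did not overlap in any of these 9 genes of male bias, and all 9 calls were stable.

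The most abundant male-biased genes differed less. Inx2, a gap junction protein, had 743, 805 and 1277 CPM in females and 1301, 1414 and 1731 CPM in males (log2 fold change -0.62, SE 0.176, adjusted p = 0.0467, -0.71 without S89), and all 6 females lay below all 6 males. Cg2852 had 445, 521 and 740.2 CPM in females and 691, 793 and 880.1 CPM in males (log2 fold change -0.51, SE 0.141, adjusted p = 0.0449, -0.61 without S89), and kpna2, an importin that carries proteins into the nucleus, 191, 244 and 611 CPM in females and 532, 575 and 640.4 CPM in males (log2 fold change -0.91, SE 0.254, adjusted p = 0.0449, -1.23 without S89). In the last of these, S89 was the only female within the male range. The calls of cg2852 and kpna2 were lost without any single library other than S89, and that of inx2 without any other than S87 and S89 (adjusted p of up to 0.103).

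Transcription factors and signals that pattern insect appendages and genitalia were called mostly as higher in males. Of 19 listed genes, all tested, 1 was female-biased and 10 were male-biased, with a median log2 fold change of -0.98 beside 0.02 over all genes tested. Without S89 there were 1 female-biased and 12 male-biased genes (median -1.09), and with library totals alone 0 and 11. Across all genes tested, 3.73% were male-biased with S89 and 22.2% without it. The patterning list was drawn up with earlier results of these data known.

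Slou (OTAU015457, scaffold 1157, 12335 to 14297, + strand), a homeodomain factor that gives muscle founder cells their identity in the fly, was absent or nearly so from females. It had 0, 0 and 0.332 CPM in females, S89 included at 0, and 3.98, 5.81 and 7.20 CPM in males (log2 fold change -5.32, SE 0.601, adjusted p = 0.000922, -5.11 without S89, -6.0001 without S90). Lim1 (OTAU014115, scaffold 1330, 41503 to 53504, - strand), a LIM-homeodomain factor of distal leg segments in the fly, had 16.8, 31.2 and 78.8 CPM in females, with S89 the highest, and 183, 226 and 281 CPM in males (log2 fold change -2.74, SE 0.344, adjusted p = 0.00145, -3.16 without S89). Per length it had the highest male level of the 10 male-biased patterning genes, at a median of 10.5 FPKM in females and 91.6 FPKM in males. Klu, a zinc-finger factor, had 2.14, 3.13 and 5.48 CPM in females and 9.57, 14.7 and 28.7 CPM in males (log2 fold change -2.23, SE 0.329, adjusted p = 0.00401, -2.39 without S89). Engrailed (en, OTAU003273, scaffold 88, 908154 to 910831), the selector of posterior compartments, had 2.29, 5.42 and 10.5 CPM in females and 15.1, 25.9 and 32.5 CPM in males (log2 fold change -2.10, SE 0.329, adjusted p = 0.00618, -2.35 without S89). Awh, another LIM-homeodomain factor, had 0.456, 1.78 and 2.45 CPM in females and 4.996, 6.34 and 12.9 CPM in males (log2 fold change -2.18, SE 0.367, adjusted p = 0.00952, -1.99 without S89). In each of these genes every female lay below every male, and each call was stable.

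The signal wg (OTAU002716, scaffold 3, 1559934 to 1560497), founding member of the Wnt family, had 1.47, 6.17 and 11.7 CPM in females and 15.7, 21.6 and 28.4 CPM in males (log2 fold change -1.74, SE 0.349, adjusted p = 0.0211, -1.99 without S89). Here also the sexes did not overlap, and the call was lost without S86, S92, S93 or S95 (adjusted p of up to 0.0574). Named after their values were seen, the other called members were ap, dac, sob and lbe on the male side. The wing and leg factor ap had 0.326, 0.766 and 0.904 CPM in females and 1.38, 2.16 and 3.16 CPM in males (log2 fold change -1.55, SE 0.294, adjusted p = 0.0165, -1.56 without S89), and sob, of the odd-skipped family of joint genes, 12.9, 15.3 and 22.5 CPM in females and 23.9, 32.3 and 41.6 CPM in males (log2 fold change -0.98, SE 0.170, adjusted p = 0.0107, -1.09 without S89). Both were stable and without overlap. Dac, of the middle leg, had 1.78, 3.45 and 6.24 CPM in females and 5.47, 9.55 and 11.4 CPM in males (log2 fold change -1.25, SE 0.334, adjusted p = 0.0425, -1.43 without S89), and lbe 5.75, 6.26 and 11.8 CPM in females and 8.53, 14.7 and 18.5 CPM in males (log2 fold change -0.94, SE 0.240, adjusted p = 0.039, -0.87 without S89). These 2 calls were lost in 11 and 9 of the 12 fits with a library left out (up to 0.0948). The single female-biased member was htl, a receptor of fibroblast growth factors that also stands among the signalling genes below. Distal-less (dll), with 0.885, 1.06 and 2.45 CPM in females and 1.97, 2.78 and 3.54 CPM in males, and cut (ct), with 8.48, 29.1 and 46.3 CPM in females and 17.1, 34.5 and 48.2 CPM in males, did not pass over the 12 libraries, although dll was male-biased without S89 (adjusted p = 0.0116).

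A pair of patterning factors outside that list were found beside other male-biased genes on their scaffolds. Dr, a homeodomain factor of the Msx family (OTAU002127, scaffold 69, 155433 to 178323), had 0.979, 7.64 and 10.7 CPM in females and 33.7, 38.3 and 51.01 CPM in males (log2 fold change -2.54, SE 0.371, adjusted p = 0.00394, -2.59 without S89). Tbx20, a T-box factor named after its human relative (OTAU008514, scaffold 420, 271203 to 271889), had 1.22, 2.94 and 5.996 CPM in females and 13.1, 14.3 and 16.9 CPM in males (log2 fold change -2.13, SE 0.295, adjusted p = 0.00283, -1.96 without S89). Both were stable, and in both every female lay below every male.

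Muscle genes that passed the test were all higher in females. Of 33 muscle genes, all tested, 17 were female-biased and 0 male-biased, with a median log2 fold change of 0.62 beside 0.02 over all genes, and without S89 21 were female-biased (median 0.65). By comparison 6.53% of all genes were female-biased with S89 and 23% without it. With library totals alone 9 of the muscle genes were female-biased. Summed over the list, females had 9239, 17951 and 23422 CPM and males 7611, 8065 and 9970.4 CPM, and S89, the lowest female, was the only one within the male range. Prm (OTAU016671, scaffold 1280, 3921 to 12494), paramyosin of the thick filament, had 722, 2650.5 and 4051 CPM in females and 542, 701 and 1063 CPM in males (log2 fold change 1.88, SE 0.351, adjusted p = 0.0158, 2.07 without S89). Mlp84b, a LIM protein of the sarcomere, had 284, 606 and 883 CPM in females and 201, 241 and 292 CPM in males (log2 fold change 1.31, SE 0.225, adjusted p = 0.0103, 1.46 without S89). These calls and that of tm2 were stable. Troponin C, tpnc25d, had 49.3, 164 and 417.2 CPM in females and 30.6, 36.97 and 65.4 CPM in males (log2 fold change 2.23, SE 0.449, adjusted p = 0.0211, 2.44 without S89, lost without S92, S93, S95 or S96, up to 0.0619). Named after their values were seen, mhc, the muscle myosin heavy chain, had 348, 1432 and 3164 CPM in females and 337, 434 and 739 CPM in males (log2 fold change 1.82, SE 0.402, adjusted p = 0.0297, 2.03 without S89), and sals, a regulator of sarcomere length, 108, 795 and 1049 CPM in females and 147, 213 and 259 CPM in males (log2 fold change 1.84, SE 0.411, adjusted p = 0.0302, 2.07 without S89). Both of these were lost in 8 or 9 of the 12 fits with a library left out (up to 0.0779).

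Markers of nerve cells and glia moved less uniformly. Of 26 neuronal genes 21 were tested, 4 were female-biased and 0 male-biased, and without S89 7 were female-biased and 3 male-biased. The list's median was 0.16 with TMM factors but -0.18 with library totals alone, where none was called, so no direction is given for it. Brp, of the presynaptic active zone, had 77.4, 214 and 437 CPM in females and 70.9, 85.9 and 124 CPM in males (log2 fold change 1.34, SE 0.323, adjusted p = 0.0355, 1.52 without S89). The potassium channel genes sh (6.08, 10.5 and 17.4 CPM in females, 3.40, 4.57 and 6.13 CPM in males, log2 fold change 1.21, SE 0.272, adjusted p = 0.0307, 1.32 without S89) and shab (1.52, 14.4 and 17.96 CPM in females, 2.93, 3.94 and 4.97 CPM in males, log2 fold change 1.67, SE 0.418, adjusted p = 0.0373, 1.91 without S89) and the adhesion gene nlg1 (74.2, 111 and 156 CPM in females, 50.4, 59.6 and 90.3 CPM in males, log2 fold change 0.81, SE 0.209, adjusted p = 0.0402, 0.90 without S89) were the other calls. Each of the 4 was lost in at least 9 of the 12 fits with a library left out (up to 0.092). The general neuronal genes n-syb, with 11.6, 14.5 and 16.4 CPM in females and 9.12, 13.4 and 16.99 CPM in males, and syt1, with 1.22, 1.89 and 2.96 CPM in females and 0.811, 1.32 and 1.49 CPM in males, were not called.

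Of 7 glial genes 2 were female-biased and 1 male-biased, and without S89 these were 6 and 1, where 10.3% and 45.2% of all genes were called. Gs2, glutamine synthetase, had 141, 1349 and 1977 CPM in females, S89 lowest, and 285, 359 and 586 CPM in males (log2 fold change 1.70, SE 0.453, adjusted p = 0.042, 1.94 without S89), and the glutamate transporter gene eaat1 18.5, 26.1 and 36.6 CPM in females and 10.4, 16.5 and 23.7 CPM in males (log2 fold change 0.74, SE 0.211, adjusted p = 0.0467, 0.73 without S89). The sodium pump subunit nrv2 had 96.03, 105 and 129 CPM in females and 134, 149 and 175 CPM in males (log2 fold change -0.48, SE 0.102, adjusted p = 0.0256, -0.54 without S89), with all females below all males. The calls of gs2 and eaat1 were lost with library totals alone and, in 11 and 10 fits, with a library left out (up to 0.097). That of nrv2 was lost in 7 (up to 0.0679).

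Genes of the dpr family were called in both directions. Besides dpr13, dpr12 and dpr6 were called, both male-biased. Dpr12 (OTAU004146, scaffold 241, 452762 to 460492) had 4.93, 6.07 and 8.97 CPM in females and 15.4, 23.9 and 27.4 CPM in males (log2 fold change -1.86, SE 0.183, adjusted p = 0.000321, -1.99 without S89), a stable call without overlap, and dpr6 1.34, 2.49 and 4.24 CPM in females and 3.78, 6.41 and 8.78 CPM in males (log2 fold change -1.24, SE 0.301, adjusted p = 0.036, -1.21 without S89, lost in 9 fits, up to 0.0852). Of the 6 listed genes 5 were tested, and the 4 calls were 2 in each direction, beside 10.3% of all genes called. The remaining call, dip-b, carries a symbol that in the fly belongs to a dipeptidase rather than to an adhesion partner of the dpr proteins. It had 272, 732 and 1176 CPM in females and 305, 355 and 451 CPM in males (log2 fold change 1.03, SE 0.273, adjusted p = 0.0418, 1.20 without S89, lost in 11 fits, up to 0.0948).

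None of the marker genes of other cell types passed over the 12 libraries: 0 of 7 for hemocytes, 0 of 3 for fat body, 0 of 4 for trachea, 0 of 10 for germline, 0 of 11 for epidermis and 0 of 4 for oenocytes, by edgeR at an adjusted p under 0.05. Of these 39 genes 9 had an unadjusted p under 0.05, and DESeq2 called 7 female-biased and 1 male-biased. Without S89, edgeR called 2 hemocyte, 1 fat body, 1 tracheal, 1 germline, 2 epidermal and 1 oenocyte gene as female-biased. It called 1 germline and 2 epidermal genes as male-biased. Over all genes edgeR called 10.3% with S89 and 45.2% without it. Hemocyte genes summed to 771, 2388 and 3897 CPM in females, S89 lowest, and 1082, 1563 and 2724 CPM in males, and fat body genes to 324, 577 and 712 CPM in females and 282, 384 and 472 CPM in males. The germline helicase gene ddx4 had 168, 207 and 297 CPM in females and 130.3, 167 and 186 CPM in males, and nos 2.60, 9.30 and 62.7 CPM in females and 3.52, 6.71 and 9.73 CPM in males. The oenocyte gene cyp4g15 had 0, 2.77 and 40.2 CPM in females and 0, 1.02 and 30.2 CPM in males. The part these cell types had in the sex differences was not tested.

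Summed cuticle genes were higher in 5 of the 6 females than in any male, and the values were uneven between libraries. Of 45 cuticle and chitin genes 32 were tested, and 7 were female-biased and 0 male-biased, with a median log2 fold change of 0.94 beside 0.02 over all genes. Without S89, 21 of 34 were female-biased and 1 male-biased (median 1.01), and with library totals alone 1 was called in each direction. By comparison 6.53% of all genes were female-biased with S89 and 23% without it. The cuticle list summed to 11782, 37659.9 and 71774 CPM in females and 11434, 14424 and 22792 CPM in males. S89 was the lowest female and lay among the males. Cpr100a, a cuticle protein, had 46.995, 466 and 6688 CPM in females and 28.7, 57.9 and 155 CPM in males (log2 fold change 4.13, SE 1.11, adjusted p = 0.043, 4.38 without S89), and its highest value was that of S85. Cpr49ah had 10.5, 131 and 754 CPM in females and 24.4, 31.3 and 63.8 CPM in males (log2 fold change 2.68, SE 0.743, adjusted p = 0.0448, 2.93 without S89), again highest in S85. Without S85 their log2 fold changes were 2.16 and 1.83. Cda5, a chitin deacetylase, had 46.5, 64.9 and 1008 CPM in females and 24.8, 35.5 and 41.1 CPM in males (log2 fold change 2.79, SE 0.772, adjusted p = 0.0448, 2.97 without S89), without overlap, but its log2 fold change was 1.247 without S85. Gfat1, the entry enzyme of the pathway to chitin, had 259, 594 and 859 CPM in females and 236, 278 and 384 CPM in males (log2 fold change 0.97, SE 0.251, adjusted p = 0.0402, 1.12 without S89). Each of these 4 calls was lost without any single library other than S89 (adjusted p of up to 0.099).

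Tanning genes gave 3 female-biased and 0 male-biased genes of 16 tested, and 11 and 0 of 17 without S89, beside 6.53% and 23% of all genes female-biased (median 0.94 with S89 and 1.51 without it). The enzymes of catecholamine and beta-alanine supply carried the largest values. Ple, tyrosine hydroxylase, had 234, 1342 and 21584 CPM in females and 249, 411 and 781 CPM in males (log2 fold change 3.55, SE 0.970, adjusted p = 0.0433, 3.80 without S89). The aspartate decarboxylase gene b had 20.8, 156 and 10007 CPM in females and 16.9, 43.5 and 64.8 CPM in males (log2 fold change 5.52, SE 1.43, adjusted p = 0.0407, 5.78 without S89). The highest values came from 2 libraries: S87 had 21584 CPM of ple and 10007 CPM of b, and S85 6655 and 1926 CPM. Without S87 the log2 fold changes were 2.19 and 3.37, with neither call kept. Pu, GTP cyclohydrolase, varied less, with 50.04, 55.1 and 74.7 CPM in females and 29.4, 41.8 and 47.5 CPM in males (log2 fold change 0.57, SE 0.140, adjusted p = 0.0369, 0.61 without S89), and the sexes did not overlap, though the call was lost in 10 fits (up to 0.0813).

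Hormone and defence genes held a few calls each, where 10.3% of all genes were called with S89 and 45.2% without it. Of 22 ecdysone genes tested 2 were female-biased (10 female-biased and 2 male-biased of 23 without S89): the nuclear receptor gene hr38 had 5.48, 8.91 and 12.04 CPM in females and 3.56, 4.58 and 6.02 CPM in males (log2 fold change 0.89, SE 0.220, adjusted p = 0.0373, 0.99 without S89), and eip63f-1, a calcium-binding ecdysone-induced protein, 2.74, 10.95 and 18.3 CPM in females and 2.70, 3.56 and 6.88 CPM in males (log2 fold change 1.36, SE 0.384, adjusted p = 0.0467, 1.56 without S89). None of the 4 juvenile hormone genes was called with edgeR or DESeq2 over the 12 libraries (1 had an unadjusted p under 0.05), and 2 were male-biased without S89. Eclosion hormone, eh, a neuropeptide released at moults, had 0.152, 5.85 and 43.3 CPM in females and 0, 0.136 and 1.69 CPM in males (log2 fold change 4.62, SE 1.26, adjusted p = 0.0433, 4.87 without S89, 3.84 without S85 and 5.46 without S93). It was the single call among 6 neuropeptide genes tested, and S85 and S87, the highest females for summed tanning genes, had 43.3 and 28.2 CPM of it, against 8.48 CPM or less in the others. Cyp6a2, a cytochrome P450, had 16.6, 119 and 217 CPM in females and 26.9, 34.3 and 62.3 CPM in males (log2 fold change 1.58, SE 0.459, adjusted p = 0.0482, 1.81 without S89) and was the 1 call among 6. Each call of this paragraph was lost without any single library other than S89 (up to 0.105) and with library totals alone.

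Immune genes were called in both directions. Of 17 tested, 2 were female-biased and 2 male-biased, and without S89 9 and 3, beside 10.3% and 45.2% of all genes. The adaptor gene imd had 74.7, 136 and 203 CPM in females and 72.8, 79.5 and 83.8 CPM in males (log2 fold change 0.85, SE 0.197, adjusted p = 0.0318, 0.98 without S89), and the peptidoglycan receptor gene pgrp-sa 46.2, 262 and 1415 CPM in females and 40.1, 56.4 and 178 CPM in males (log2 fold change 2.66, SE 0.767, adjusted p = 0.0477, 2.90 without S89, 1.99 without S87). The male-biased pair were members of the Toll family that in the fly act as receptors of nerve growth factors: toll-7 had 107, 158 and 236 CPM in females and 214, 264 and 351 CPM in males (log2 fold change -0.78, SE 0.204, adjusted p = 0.0407, -0.93 without S89), and toll-6 18.4, 25.4 and 34.7 CPM in females and 31.6, 39.9 and 49.4 CPM in males (log2 fold change -0.62, SE 0.171, adjusted p = 0.0441, -0.64 without S89). All 4 were lost in 10 or 11 fits with a library left out (up to 0.103). None of the 5 chemosensory genes tested was called with edgeR or DESeq2 or had an unadjusted p under 0.05.

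Genes of cell division and ribosomes were called in numbers without S89 and hardly with it, on the male side in each case, and of all genes 3.73% were male-biased with S89 and 22.2% without it. Of 35 cell cycle and DNA replication genes 0 were female-biased and 1 was male-biased over the 12 libraries, but 34 had a negative log2 fold change (median -0.73), and without S89 33 were male-biased (median -1.13). Their sums were 1766, 2768 and 4745 CPM in females, highest in S89, and 3134, 4183 and 5262 CPM in males. The called gene was mad2, of the spindle checkpoint, with 10.9, 17.4 and 31.3 CPM in females and 29.4, 31.5 and 33.7 CPM in males (log2 fold change -0.79, SE 0.204, adjusted p = 0.0406, -1.01 without S89). S89 again was the only female within the male range. Of 64 cytosolic ribosomal protein genes 1 was male-biased, and without S89 61 were (medians -0.43 with S89 and -0.64 without it), and of 63 mitochondrial ones 3 with S89 and 31 without it. The cytosolic genes summed to 24548, 32540.5 and 61734 CPM in females and 43839.9, 48545 and 55109 CPM in males. S89 was above every male, and the other 5 females were below every male. Rps6 had 186, 250.0 and 450.5 CPM in females and 397, 459 and 493 CPM in males (log2 fold change -0.73, SE 0.187, adjusted p = 0.039, -0.93 without S89), and the mitochondrial mrps18c, mrpl46 and mrpl40 had log2 fold changes of -0.54, -0.52 and -0.43. In mrps18c and mrpl40 no female reached the lowest male. All of these calls depended on which library was left out, each being lost in 8 or more fits (up to 0.105).

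Proteasome genes were 3 female-biased and 0 male-biased of 22, and 13 and 0 without S89, beside 6.53% and 23% of all genes female-biased. All 22 had a positive log2 fold change (median 0.29), but with library totals alone the median was -0.05 and 14 were negative, so the direction depends on the scaling. The lid subunit genes rpn6, rpn3 and rpn7 were called. Rpn6 had 320.4, 751 and 862 CPM in females and 348, 378 and 469 CPM in males (log2 fold change 0.83, SE 0.207, adjusted p = 0.0378, 0.97 without S89), and the log2 fold changes of rpn3 and rpn7 were 0.58 and 0.62. S89 was the lowest female of rpn6, below every male, and these calls were lost without any single library other than S89 (up to 0.0956). Of 15 genes of secretory vesicle coats 1 was male-biased, p24-1, with 48.8, 61.004 and 66.9 CPM in females and 66.2, 79.1 and 83.5 CPM in males (log2 fold change -0.36, SE 0.0955, adjusted p = 0.0418, -0.40 without S89, lost in 11 fits, up to 0.094). Without S89, 2 coat genes were female-biased and 6 male-biased, beside 23% and 22.2% of all genes.

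**Figure D4:**
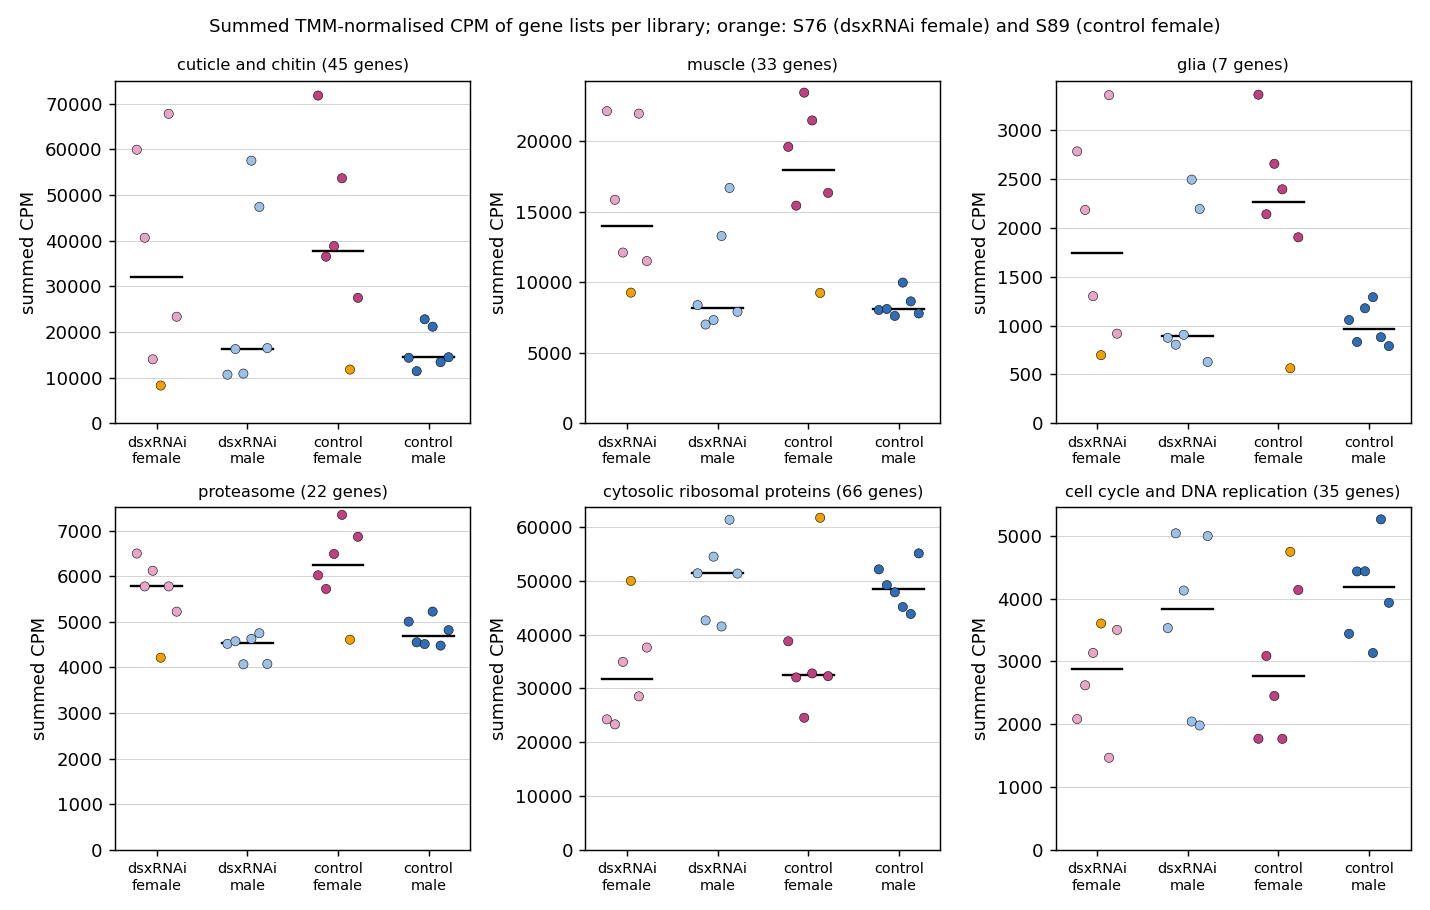
Summed TMM-normalised CPM of 6 gene lists per library, in dsxRNAi female, dsxRNAi male, control female and control male genitalia, with bars at group medians, all measured members summed and the axes starting at 0. S89 (control female) and S76 (dsxRNAi female), in orange, are the lowest females in cuticle, muscle, glia and proteasome genes, where S89 has 11782 CPM of cuticle genes against 27482 CPM or more in the other control females.

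Lists of developmental signalling pathways held between 0 of 8 called genes (Hedgehog) and 2 of 8 (Wnt). The share over all genes tested was 10.3% with S89 and 45.2% without it. In the Wnt list the male-biased genes were wg and wls, the carrier that brings Wnt proteins to the cell surface, while the list's median was 0.30 with TMM factors and -0.03 with library totals alone. Wls had 223, 264 and 341 CPM in females and 321, 367 and 427 CPM in males (log2 fold change -0.46, SE 0.119, adjusted p = 0.04, -0.54 without S89). Of 8 Hedgehog genes none was called with edgeR over the 12 libraries (3 had an unadjusted p under 0.05, and DESeq2 called 2 male-biased) and 4 were male-biased without S89, with ci, the transcription factor of the pathway, at 35.1, 96.1 and 145 CPM in females and 131, 187 and 244 CPM in males, and the kinase gene fu at 12.2, 18.4 and 44.6 CPM in females and 27.7, 36.7 and 40.2 CPM in males. Of 13 genes of the BMP and activin pathway 1 was female-biased, the receptor gene wit, with 44.7, 49.04 and 53.97 CPM in females and 35.1, 38.4 and 42.7 CPM in males (log2 fold change 0.35, SE 0.0820, adjusted p = 0.0336, 0.37 without S89). Females and males did not overlap for wit.

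EGF and FGF receptor signalling gave 2 calls in each direction among 17 genes, beside 10.3% of all genes called. The FGF receptor gene htl had 251, 317 and 379 CPM in females and 187, 209.8 and 258 CPM in males (log2 fold change 0.55, SE 0.128, adjusted p = 0.0318, 0.62 without S89), and its adaptor stumps 62.8, 90.96 and 221 CPM in females and 45.04, 53.6 and 80.2 CPM in males (log2 fold change 1.03, SE 0.292, adjusted p = 0.0467, 1.16 without S89). On the male side were aos, a secreted antagonist of the EGF receptor, with 0.411, 0.902 and 1.73 CPM in females and 1.82, 3.13 and 5.56 CPM in males (log2 fold change -1.73, SE 0.361, adjusted p = 0.0237, -1.71 without S89), and dsor1, the kinase MEK, with 104, 117 and 151 CPM in females and 148, 159.8 and 185 CPM in males (log2 fold change -0.43, SE 0.105, adjusted p = 0.0365, -0.50 without S89). For aos all females lay below all males. In the Notch list 2 of 15 were male-biased, fng, which modifies Notch, with 11.6, 14.01 and 16.3 CPM in females and 19.8, 21.7 and 24.8 CPM in males (log2 fold change -0.63, SE 0.106, adjusted p = 0.00952, -0.58 without S89), and the ligand gene jag1 with 42.6, 55.9 and 65.2 CPM in females and 58.4, 97.04 and 123 CPM in males (log2 fold change -0.77, SE 0.178, adjusted p = 0.0318, -0.83 without S89). Of all signalling calls named here other than wg, the one for fng was stable, and the others were lost in 4 fits (aos, without S86, S92, S95 or S96) to 11 fits (up to 0.102).

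Reads were limited to females for 0 genes and to males for 2, by the rule of at most 3 reads in every library of one sex and at least 10 in every library of the other. Cmpy (OTAU005716, scaffold 296, 399133 to 402165), a transmembrane protein named crimpy in the fly, had 0 to 3 reads in the females and 13 to 33 in the males (0, 0.137 and 0.456 CPM in females and 1.59, 2.15 and 2.61 CPM in males). OtauTmpA002938 (OTAU002938, scaffold 127, 772528 to 779587) had 1 to 3 reads in the females and 19 to 30 in the males (0.0964, 0.222 and 0.490 CPM in females and 1.43, 2.25 and 3.13 CPM in males). Over the group, the 6 females had 8 and 12 reads on these genes and the 6 males 143 and 149. Both calls were stable, at log2 fold changes of -3.58 and -3.10. Neither gene was silent in females elsewhere, since cmpy had a median of 11.1 CPM in control female brains and OtauTmpA002938 of 2.75 CPM.

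Sex-biased genes stood next to each other on several scaffolds. Among genes called with and without S89, without overlap and at 5 CPM or more, were 87 female-biased and 152 male-biased ones. They formed 21 pairs of neighbours, and 20 of these pairs changed in the same direction. Whether that is more than expected for so many genes was not tested. On scaffold 420, OtauTmpS008513, tbx20 and OtauTmpM008515 followed each other with log2 fold changes of -2.37, -2.13 and -2.11. On scaffold 756, OtauTmpA011141, OtauTmpA011142 and OtauTmpM011143 had -1.90, -2.23 and -1.92. On scaffold 505 a male-biased gene, cg32354, bordered a run of female-biased ones: cg32354 had 34.6, 117 and 159 CPM in females and 365, 476 and 707 CPM in males (log2 fold change -2.12), and OtauTmpS007773, OtauTmpM007774 and OtauTmpM007775 had log2 fold changes of 1.74, 1.85 and 1.67. OtauTmpM007774 had 23.1, 36.3 and 71.99 CPM in females and 5.15, 10.5 and 18.7 CPM in males. All 10 calls of these runs were stable. Lim1, dr, wg and opa also had a male-biased neighbour each, OtauTmpS014116 (-2.79), OtauTmpM002128 (-2.21), OtauTmpA002715 (-1.93) and OtauTmpS011825 (-1.82). Opa, a zinc-finger factor, had 0.913, 4.75 and 6.04 CPM in females and 8.08, 15.1 and 19.5 CPM in males (log2 fold change -1.78, lost without S96 alone, adjusted p = 0.0511). Whether neighbouring gene models are parts of one transcript was not tested.

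The dsxRNAi genitalia share no library with the control comparison and show which of these sex differences were also present after injection against dsx. On TMM scales set within each 12 libraries, dsx itself had 3.29, 23.5 and 52.9 CPM in dsxRNAi females. It had 2.25, 12.4 and 20.3 CPM in dsxRNAi males, 10.1, 52.5 and 156 CPM in control females and 24.4, 30.8 and 44.2 CPM in control males. Most dsxRNAi females (S74, S75, S76 and S78) lay within the range of control females, and every dsxRNAi male lay below every control male. Of 9980 genes tested in dsxRNAi genitalia, 109 were female-biased (1.09%) and 97 male-biased (0.972%), 2.06% in all, with 2584 at an unadjusted p under 0.05. The count moved widely with single libraries, to 786 female-biased and 894 male-biased genes without the female S76 and to 20 genes in all without the female S74. Of the female-biased calls of controls, 617 of the 648 tested (95.2%) had the same sign in dsxRNAi genitalia and 35 were called there, and of the male-biased calls 344 of 363 (94.8%) and 46. For the calls made without S89 the signs were the same for 2127 of 2290 female-biased and 2153 of 2220 male-biased genes. The share of all genes with the same sign in both treatments is not given here, so these shares are not read as particular to the calls. Their median log2 fold changes were smaller in dsxRNAi genitalia, 0.65 against 1.10 in controls for female-biased genes and -0.44 against -0.78 in controls for male-biased genes, but the genes had been chosen on the control values.

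Several of the large male-biased differences were called in both treatments. OtauTmpA006789 had 0.606, 1.08 and 2.57 CPM in dsxRNAi females and 35.8, 97.6 and 246 CPM in dsxRNAi males (log2 fold change -6.44, SE 0.567, adjusted p = 0.000882), close to the -6.36 of controls. Sert had 0.163, 0.314 and 3.04 CPM in dsxRNAi females and 6.83, 18.7 and 36.5 CPM in dsxRNAi males (log2 fold change -4.70, adjusted p = 0.0173), lim1 12.4, 25.2 and 68.7 CPM in dsxRNAi females and 117, 253 and 372 CPM in dsxRNAi males (-2.87, adjusted p = 0.0226), and en 2.17, 4.65 and 6.62 CPM in dsxRNAi females and 18.2, 29.9 and 41.98 CPM in dsxRNAi males (-2.74, adjusted p = 0.00412). Every dsxRNAi female lay below every dsxRNAi male for these 4 genes. Dpr12, wg, dr and tbx20 were male-biased there as well, with log2 fold changes of -2.11, -1.92, -1.72 and -1.80 and adjusted p of up to 0.0327. On the female side the run on scaffold 505 was called again, with OtauTmpM007774 at 30.5, 48.97 and 75.6 CPM in dsxRNAi females and 5.44, 11.5 and 20.5 CPM in dsxRNAi males (log2 fold change 1.97, adjusted p = 0.0294). Slou was too low to be tested and had 0, 0 and 0.644 CPM in dsxRNAi females and 0.591, 4.50 and 5.90 CPM in dsxRNAi males.

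Whether a sex difference depended on the treatment was tested over all 24 genitalia libraries. Of 10458 genes, 2 passed (0.0191%), 1 in each direction (0.00956% each), with 431 at an unadjusted p under 0.05. Dpr13 had 0.357, 0.564 and 0.736 CPM in dsxRNAi females and 0.270, 0.409 and 1.15 CPM in dsxRNAi males, against 25.9, 27.2 and 111 CPM in control females and 0.307, 0.980 and 2.24 CPM in control males, so the female level of controls was missing from every dsxRNAi female (difference of the log2 fold changes, dsxRNAi minus control, -5.22, SE 0.69, adjusted p = 0.00146, and -4.67 without S89). Awh had 3.17, 6.48 and 9.47 CPM in dsxRNAi females and 2.60, 4.24 and 5.31 CPM in dsxRNAi males, against 0.456, 1.78 and 2.45 CPM in control females and 4.996, 6.34 and 12.9 CPM in control males (difference 2.84, SE 0.465, adjusted p = 0.0189, and 2.65 without S89). All 6 dsxRNAi females lay above all 6 control females for awh, while the dsxRNAi males lay within or below the control range. Both passed in the alternatives run for this test: DESeq2, no filter, and edgeR without S89 or without S76. Without S76 the adjusted p of awh was 0.0498. No other library was left out for this test, so neither result is called stable. DESeq2 called 13 genes in the same contrast, 3 positive and 10 negative.

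Other genes had values that looked unequal between dsxRNAi and control genitalia but did not pass. Hig had 0.433, 1.02 and 3.74 CPM in dsxRNAi females and 1.18, 2.19 and 2.98 CPM in dsxRNAi males (log2 fold change -0.33, adjusted p = 0.687), and OtauTmpM003092 1.13, 3.83 and 6.25 CPM in dsxRNAi females and 0.859, 2.41 and 3.49 CPM in dsxRNAi males (0.81, adjusted p = 0.247). The adjusted p of the treatment difference was 0.236 for hig and 0.561 for OtauTmpM003092. OtauTmpM007150 had 4.59, 5.19 and 235 CPM in dsxRNAi females, with S76 the highest, and 6.87, 46.9 and 149.8 CPM in dsxRNAi males (log2 fold change -0.18, adjusted p of the treatment difference 0.727). Giiispla2 ranged from 0.163 to 1.66 CPM in dsxRNAi females and from 0.355 to 2.83 CPM in dsxRNAi males, while every control male had 5.22 CPM or more. For muscle genes 2 of 33 were female-biased in dsxRNAi genitalia (median 0.53), where edgeR called 1.09% of all genes female-biased. For cuticle genes none of 33 was called there with edgeR or DESeq2, 1 having an unadjusted p under 0.05 (median 0.10). Cuticle genes summed to 8286, 31989.8 and 67759.9 CPM in dsxRNAi females and 10658, 16376 and 57519 CPM in dsxRNAi males, where the male libraries S82 and S83, at 57519 and 47387 CPM, stood above the other 4 males, and the females S75 and S76, at 14024 and 8286 CPM, below the other 4 females. S82 and S83 also had 22.2 and 38.6 CPM of eclosion hormone, against 0.355 CPM or less in the other dsxRNAi males.

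**Figure D5:**
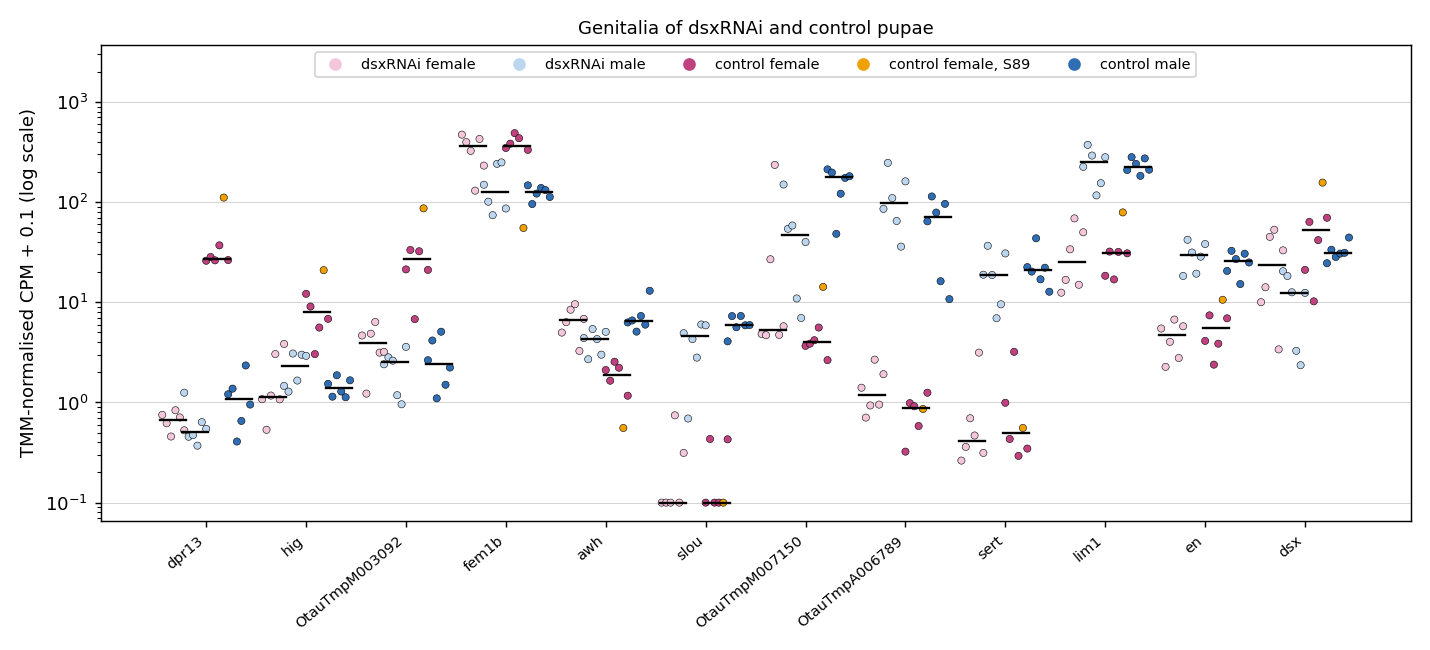
TMM-normalised CPM plus 0.1 on a log axis for 12 genes in genitalia of dsxRNAi females, dsxRNAi males, control females and control males, one point per library with S89 in orange and bars at group medians. Dpr13 is at 0.736 CPM or less in every dsxRNAi female and at 25.9 CPM or more in every control female, while slou, sert, lim1 and en keep a lower median in females in both treatments.

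Over all libraries, and without S89, more genes were called in genitalia than in any other control tissue. Without any other single genitalia library the 121 to 342 calls were fewer than the 595 of head horns. No library was left out of the head horn fit, so these last counts come from unlike sets of libraries. In brain 0.16% of 9980 genes were called (0.1% female-biased, 0.0601% male-biased), in head horns 6.53% of 9111 (3.23% and 3.3%), and in thoracic horns 0.355% of 9012 (0.222% and 0.133%). These libraries share no sample with the genitalia. By the study's methods the tissues were dissected from the same pupae, so libraries of different tissues share animals, but the labels do not say which. Of the female-biased genes of genitalia, 21 of 559 tested were also female-biased in head horns and 18 were male-biased there. Of the male-biased genes, 21 of 322 were also male-biased in head horns and 14 female-biased. For the calls made without S89 these were 67 of 1966 female-biased genes called the same way in head horns and 78 the other way, and 56 of 2155 male-biased genes and 46. In brain 2 of 546 female-biased and 1 of 332 male-biased genes were called the same way, in thoracic horns 4 of 565 and 1 of 297, and none the other way.

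In one fit of all 48 control libraries, the sex difference of genitalia differed from the mean of the other 3 tissues for 2315 of 11148 genes (20.8%), 1371 toward females (12.3%) and 944 toward males (8.47%), and without S89 for 2013 and 1968. This fit had no term for the animal, so libraries of one animal were treated as independent and its p-values are approximate. Dpr13 differed by 5.72, SE 0.439, adjusted p = 1.14e-12. Its median in brain was 42.7 CPM in females and 44.3 CPM in males (log2 fold change -0.05, adjusted p = 0.869). OtauTmpA006789 differed by -6.79, SE 0.493, adjusted p = 3.56e-13. Cg30158 differed by -2.92, SE 0.368, adjusted p = 1.13e-06, and its medians in brain were 127 CPM in females and 133 CPM in males, far above genitalia. Aadat, an aminotransferase of kynurenine, differed by -1.81, SE 0.215, adjusted p = 3.90e-07 and had 8.58, 17.8 and 38.2 CPM in female and 52.003, 59.9 and 78.7 CPM in male genitalia (log2 fold change -1.62, SE 0.285, adjusted p = 0.0112, -1.60 without S89). Sp2637 differed by -1.73, SE 0.212, adjusted p = 6.00e-07, with 21.1, 31.8 and 39.5 CPM in female and 96.4, 106 and 151 CPM in male genitalia (log2 fold change -1.84, SE 0.179, adjusted p = 0.000321, -1.92 without S89), and OtauTmpA002938 by -3.42, SE 0.370, adjusted p = 3.59e-08. All 6 females lay below all 6 males in genitalia for aadat, sp2637 and OtauTmpA002938. In head horns OtauTmpA002938 was female-biased instead (log2 fold change 1.47, adjusted p = 0.00454), with medians of 3.90 CPM in females and 1.40 CPM in males.

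Ab, like OtauTmpA002938 above, ran in opposite directions in genitalia and head horns, and so did the medians of OtauTmpM008946. The other genes of this paragraph are named for a sex difference further toward females in genitalia than in the mean of the other tissues. Ab, the zinc-finger factor abrupt, differed by 2.25, SE 0.270, adjusted p = 4.08e-07 and had 31.6, 52.4 and 169 CPM in female and 25.4, 26.96 and 34.9 CPM in male genitalia (log2 fold change 1.31, SE 0.338, adjusted p = 0.0402, 1.46 without S89), while its median in head horns was 23.1 CPM in females and 95.9 CPM in males, male-biased there at a log2 fold change of -2.07. OtauTmpM008946 differed by 3.92, SE 0.577, adjusted p = 1.34e-05, with 1.07, 3.44 and 5.55 CPM in female and 0.0934, 0.374 and 1.04 CPM in male genitalia (log2 fold change 2.61, SE 0.532, adjusted p = 0.0218, 2.54 without S89) and medians in head horns of 0.243 CPM in females and 2.75 CPM in males. Dnr1, a ubiquitin ligase of immune control in the fly, differed by 1.37, SE 0.199, adjusted p = 1.08e-05 and had 55.8, 174 and 196 CPM in female and 54.4, 70.5 and 82.5 CPM in male genitalia (log2 fold change 1.17, SE 0.249, adjusted p = 0.0256, 1.35 without S89), and OtauTmpM010859 differed by 1.70, SE 0.252, adjusted p = 1.44e-05 with 17.9, 29.04 and 90.1 CPM in female and 10.2, 12.6 and 17.2 CPM in male genitalia (log2 fold change 1.49, SE 0.359, adjusted p = 0.0355, 1.63 without S89). Within genitalia, the calls of ab, OtauTmpM008946, dnr1 and OtauTmpM010859 were lost in 3 to 10 fits with a library left out, with adjusted p of up to 0.0919, whereas those of aadat and sp2637 were stable.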

How the data were processed

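RNA was sequenced from single tissues of control and dsxRNAi pupae on stranded mRNA libraries (TruSeq, single-end, NextSeq). Reads were trimmed with Trimmomatic 0.32, aligned with TopHat2 2.1.0 to the *O. taurus* genome v0.5.3 and counted per gene with HTSeq 0.6.1p1, per the labels and the study's methods. The authors deposited raw counts of reads per gene and FPKM values made with DESeq2, both for 17483 genes and 96 libraries. The deposited FPKM equal the counts times a constant per library and one per gene, and were used for levels between genes alone. Gene names come from the tables, where 6976 genes carry the symbol of a fly, human or worm gene, and genes are called by that symbol here. Copies that share reads, and genes overlapping on a strand, are uncertain.

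Libraries were grouped by their labels. Counts were tested with edgeR 4.0.16 (R 4.3.3): TMM factors, filterByExpr by group, robust quasi-likelihood fits, and Benjamini-Hochberg adjustment over all genes tested, with a threshold of 0.05. The sexes were compared in control and, separately, in dsxRNAi genitalia, and fits of all 24 genitalia libraries and of all 48 control libraries gave the dependence of the sex difference on treatment and on tissue. CPM were scaled within the libraries of each fit, so dsxRNAi and control values stand on 2 scales. SE is the absolute log2 fold change over the square root of F. Alternatives were DESeq2 1.42.0, its size factors in edgeR, no filter, all genitalia groups together, limma-voom 3.58.1 with library weights, each library left out, and, chosen after seeing the data, library totals alone, DESeq2 or voom without S89, and lists without S89 or under other scalings. For the dependence on treatment only S89 or S76 was left out, and for that on tissue only S89. Components and correlations used log2(CPM + 1) of genes at 5 CPM or more.

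The genes named are dsx and, per direction, the 8 named and 3 unnamed genes with the largest differences among those called with and without S89, without overlap and at 5 CPM or more, and the 3 called genes of highest mean CPM. From each of 31 lists (563 genes) up to 4 called genes were taken by p, or up to 2 others as values, and all of the sex determination and Hox lists. Up to 5 genes per direction for dependence on treatment and on tissue, genes with at most 3 reads in one sex and 10 or more in the other, and adjacent pairs complete the rule. Ap, dac, sob, lbe, mhc, sals, ct and dll were added after their values were seen. The groups, lists and genes were chosen with earlier results of these data known.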

Additional observations from a re-analysis of the deposited data

Results flagged for a closer look

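In groups of 6 libraries, a library was set apart where its gap to the nearest other exceeded 0.625 of the group's range. Normally distributed values pass that limit in about 1 of 20 groups. The CPM were not log-transformed here, and many of the genes were chosen for their sex difference, so that rate need not hold. Of 286 groups, from 112 genes and 31 lists in females and in males, 37 had such a library, 27 of them among females and 10 among males. S89 was that library in 12, S87 in 8 and S85 in 7.

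S89 was the highest female for dpr13 (111 CPM), OtauTmpM003092 (86.5), lim1 (78.8), OtauTmpM007150 (14.1), kpna2 (611), rps6 (450.5), OtauTmpS014116 (8.21) and cmpy (0.456 CPM), and the lowest for fem1b (55.1), shab (1.52), rpn6 (320.4) and dnr1 (55.8 CPM). S85 was the highest for cda5 (1008), ine (51.97), OtauTmpM009002 (133), OtauTmpA005719 (29486), cpr100a (6688) and cpr49ah (754 CPM), and for the summed neuropeptide genes (178 CPM). S87 was the highest for OtauTmpM009827 (15.998), sert (3.10), b (10007), ple (21584), ab (169) and OtauTmpM010859 (90.1 CPM) and for the summed tanning genes (39412 CPM), and the lowest for the summed Hox genes (532 CPM).

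Among males S93 was the highest for OtauTmpM009002 (14.3), sert (43.4) and cg15537 (221 CPM), and S96 for inx2 (1731), awh (12.9), sp2637 (151) and dr (51.01 CPM). S95 was the highest for fru (16.8 CPM), S91 for pgrp-sa (178 CPM) and S94 for mhc (739 CPM).

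A sex difference that itself differed between treatments was found for 2 genes, dpr13 (-5.22 on the log2 scale, dsxRNAi minus control) and awh (2.84). Between genitalia and the mean of the other control tissues it differed for 2315 genes. Those named were dpr13 (5.72), OtauTmpM008946 (3.92), ab (2.25), OtauTmpM010859 (1.70) and dnr1 (1.37) toward females, and OtauTmpA006789 (-6.79), OtauTmpA002938 (-3.42), cg30158 (-2.92), aadat (-1.81) and sp2637 (-1.73) toward males.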

How the results depend on the processing

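No paired analysis was possible because the labels do not say which animal a library came from. None of the named genes turned its direction under any alternative, but the medians of 9 lists turned below zero with library totals alone (sex determination, neurons, fat body, trachea, germline, oenocytes, Wnt, BMP and proteasome), that of germline also without S89, and male-biased calls outnumbered female-biased ones with library totals alone, without a filter and with limma-voom with and without S89. The count of sex-biased control genes depended most on S89, on single libraries and on the tool. Against 654 female-biased and 374 male-biased genes, 1028 in all, DESeq2 called 1755 and 955 (2710), edgeR without a filter 205 and 245 (450), library totals alone 120 and 637, and limma-voom with library weights, which gave S89 the lowest weight, 2051 and 2297 (4348). Without S89, DESeq2 called 2699 and 2304 (5003) and limma-voom 2077 and 2190 (4267). With each library left out, edgeR called 37 to 2323 female-biased and 84 to 2245 male-biased genes, 121 to 4568 in all. In dsxRNAi genitalia DESeq2 called 699 and 502 genes (1201), edgeR without a filter 60 female-biased of 136, and edgeR with each library left out 7 to 786 female-biased and 13 to 894 male-biased genes, 20 to 1680 in all, the highest without S76. For the dependence on treatment DESeq2 called 13 genes, 3 positive and 10 negative. For the dependence on tissue edgeR without S89 called 3981 genes, 1968 of them toward males. Of 112 named genes, the called ones lost their call in 0 cases with DESeq2 (with or without S89) and without S89 in edgeR, in 1 with its size factors, in 27 with all genitalia groups together, in 33 with library totals alone, in 37 without a filter, in 1 and 4 with limma-voom with and without S89, and in 47 to 62 without any other single library. Dsx, not called over the 12 libraries by edgeR, gained a call with limma-voom with library weights and S89 kept. Read depth limits genes under about 3 reads per library.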
